A study of Homo sapiens with 6 samples.

Results

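The RAB genes encode small GTPases that direct membrane traffic. They were taken here as the genes whose platform symbol is RAB followed by a number and at most 2 letters. Partner genes such as RAB3GAP1 and RAB11FIP genes, and 1 pseudogene, RAB1C, were left out. This gave 60 genes, on 63 probe sets, of 18404 genes with a probe set of 1 symbol among 32321 probe sets. Where a gene had several probe sets, the one with the highest mean over the 6 arrays stands for it.

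The cells were of the DEV line, which was derived from nodular lymphocyte-predominant Hodgkin lymphoma, a tumour of B cell origin. DEV cells were kept alone (monoculture, 2 arrays), with CD3+ T cells (T cell coculture, 2 arrays) or with CD14+ monocytes (monocyte coculture, 2 arrays), with DEV cells and blood cells at 1:10 for 5 days. The blood cells came from healthy donors. After coculture the DEV cells were purified with magnetic beads against CD4, CD8 and CD14, and 40 ng of RNA was amplified and hybridised to Affymetrix human Gene ST arrays. The comparisons ask how RAB expression in the lymphoma cells differs with each kind of blood cell beside them. DEV is 1 line, and the sources describe the bead step for the cocultures, so that step and the presence of blood cells cannot be told apart. The labels do not say whether the 2 arrays of a group came from separate cultures or donors, so the p-values measure only the spread between these samples, which may be technical. The study describes the arrays as 2 representative replicates of several experiments, and how they were chosen is not stated. In bulk RNA, fewer cells of a type and less RNA per cell cannot be told apart.

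Rab proteins are switches that alternate between a GTP-bound form on membranes and a GDP-bound form in the cytosol. Guanine nucleotide exchange factors (GEFs) turn them on, and GTPase-activating proteins (GAPs) turn them off. Escort and prenylation proteins put them on membranes, and effectors carry out tethering, transport and fusion. In lymphocytes they serve granule release, receptor recycling, antigen processing and autophagy.

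The 5 measured B cell markers summed to 42.9 to 46.3 log2 units per array, and they differed in opposite directions. MS4A1, which encodes CD20, had log2 values of 9.21 to 9.87, with a difference of 0.57 ± 0.091 (SE) for both cocultures minus monoculture, and CD22 differed by 0.70 ± 0.13. PAX5, the B cell identity factor, was 10.23 and 10.00 in monoculture, 9.57 and 7.77 in T cell coculture and 8.26 and 7.43 in monocyte coculture, a difference of -1.86 ± 0.50. CD79B differed by -0.61 ± 0.34 and CD79A by 0.065 ± 0.18. None of the 5 passed the test in limma. LYZ, the monocyte lysozyme gene, was 8.42 in monocyte coculture replicate 1 and between 4.98 and 5.09 on the other 5 arrays. CD14, the marker of the added monocytes, was 6.15 on that array and 5.21 to 5.42 elsewhere. The summed log2 values of the 12 monocyte markers were 77.2 on that array and 70.2 on the other monocyte coculture array. They were 71.8 and 72.9 in monoculture, and 71.6 and 70.2 in T cell coculture. These sums mix both directions. In monocyte coculture 8 of the 12 had higher means than in monoculture, against 52.9% of all genes. CYBB, bright in monoculture at 9.46 and 9.20, was 8.76 and 7.91 in monocyte coculture. MNDA was 8.27 and 8.93 in monoculture and 7.96 and 7.85 in monocyte coculture. The 12 T cell markers summed to 69.0 and 68.1 in T cell coculture against 67.7 and 67.5 in monoculture and 67.1 and 66.9 in monocyte coculture. CD3D, a T cell receptor complex gene, was 8.26 and 8.33 in monoculture and 7.47 to 8.12 in the cocultures. Other markers of that list went the other way. In T cell coculture 9 of the 12 had higher means than in monoculture, against 53% of all genes. IL7R, among these, was 4.89 and 4.81 in monoculture and 5.52 and 5.16 in T cell coculture. The 6 natural killer cell markers summed to 31.2 to 32.0 and the 5 platelet markers to 27.1 to 28.1 over the 6 arrays. The part of these markers in the RAB values was not tested. For RAB3A, RAB29 and RAB8B, values without monocyte coculture replicate 1 are given beside the result.

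Promoter sequences are shown for RAB3A, with the largest difference, and for RAB29, RAB8A and RAB8B, which differed in opposite directions. Each runs from 250 bases before the RefSeq start to 30 bases after it, 5′ to 3′ on the gene's strand, in GRCh38.p14. Capitals mark the GC box GGGCGG, on either strand, or the E-box CACGTG. RAB3A lies on the minus strand at chr19:18204013-18204292, RAB29 on the minus strand at chr1:205775453-205775732, RAB8A on the plus strand at chr19:16111639-16111918 and RAB8B on the plus strand at chr15:63189356-63189635.
RAB3A: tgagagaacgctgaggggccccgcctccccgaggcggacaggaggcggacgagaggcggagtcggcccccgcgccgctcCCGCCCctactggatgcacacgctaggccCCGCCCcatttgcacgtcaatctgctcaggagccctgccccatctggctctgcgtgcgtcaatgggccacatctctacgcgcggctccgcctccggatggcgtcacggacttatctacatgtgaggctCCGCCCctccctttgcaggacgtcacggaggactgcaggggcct
RAB29: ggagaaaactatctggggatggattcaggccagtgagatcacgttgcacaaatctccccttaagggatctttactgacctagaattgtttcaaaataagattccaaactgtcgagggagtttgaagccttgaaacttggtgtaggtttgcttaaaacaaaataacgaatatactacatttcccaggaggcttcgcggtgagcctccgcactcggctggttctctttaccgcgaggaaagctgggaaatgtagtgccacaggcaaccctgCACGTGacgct
RAB8A: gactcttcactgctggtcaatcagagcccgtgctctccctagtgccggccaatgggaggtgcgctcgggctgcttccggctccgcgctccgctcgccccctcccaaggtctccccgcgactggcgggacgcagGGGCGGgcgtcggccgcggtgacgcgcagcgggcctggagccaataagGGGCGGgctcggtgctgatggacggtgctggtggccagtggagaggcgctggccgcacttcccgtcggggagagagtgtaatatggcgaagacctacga
RAB8B: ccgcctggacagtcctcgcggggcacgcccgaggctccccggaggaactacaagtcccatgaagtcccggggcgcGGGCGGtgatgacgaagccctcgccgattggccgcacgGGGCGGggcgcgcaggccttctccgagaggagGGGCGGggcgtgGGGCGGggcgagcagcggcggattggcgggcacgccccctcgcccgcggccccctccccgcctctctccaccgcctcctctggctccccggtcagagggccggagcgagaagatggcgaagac

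The GC box was found 3 times in the RAB3A window, 2 times in that of RAB8A, 4 times in that of RAB8B and 0 times in that of RAB29, which held 1 E-box. GC content was 68.6% for RAB3A, 69.6% for RAB8A, 75.7% for RAB8B and 47.1% for RAB29. Promoters were matched for 47 of the 60 genes. The GC box was in 38 of these 47, and in 47.5% of the windows of 27305 genes. These windows cover more genes than the 18404 measured, so the 47 and the 27305 are unlike sets. The E-box was in 6 of the 47 (RAB4A, RAB5A, RAB21, RAB24, RAB29 and RAB31) and in 8.42% of all windows. A match is a run of letters and no evidence of binding. Whether either motif bears on the RAB values was not tested.

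For the mean of both cocultures against monoculture, 0 of the 60 RAB genes were called by limma at an adjusted p under 0.05, where 0.718% of all probe sets were called. The mean was higher in coculture for 40 genes and lower for 20, and 54% of the 18404 genes were higher. At an unadjusted p under 0.05 there were 9 higher and 6 lower, 15 of 60. Of all genes 21.4% passed, 7.82% higher and 13.6% lower. The median log2 difference was 0.061 over the RAB genes and 0.015 over all genes, and 0.0275 over all probe sets. After median centring of the arrays the median was -0.0019 over the RAB genes and -0.035 over all probe sets. In 17 genes all 4 coculture arrays lay above both monoculture arrays, a pattern of 15.6% of all genes, and in 7 genes all 4 lay below, a pattern of 17.5%.

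The differences were small for most members. An absolute log2 difference of at least 0.25 was seen in 28.3% of RAB genes and 24.0% of all genes, and one of at least 0.5 in 8.33% and 8.36%. RAB3A was the 1 RAB gene at 1 or more. No gene among the 18404, each taken by its brightest probe set, had a larger positive difference. Probe sets outside that set were not ranked. The study named HSN2 and FABP3 beside RAB3A as the most strongly upregulated. RAB29, RAB33A and RAB8A were the lowest, and RAB2B and RAB8B followed RAB3A at the top.

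**Figure D1:**
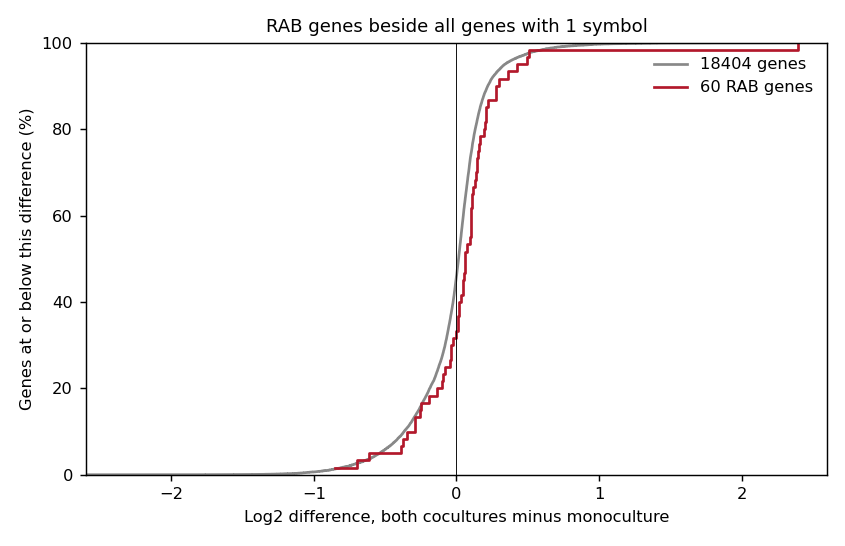
Cumulative share of genes, in percent (y axis), at or below a given log2 difference of both cocultures minus monoculture (x axis), for 60 RAB genes in red and 18404 genes in grey. The red line lies slightly to the right of the grey one near its middle, with a median of 0.061 against 0.015, and its last step is RAB3A at 2.39.

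**Figure D2:**
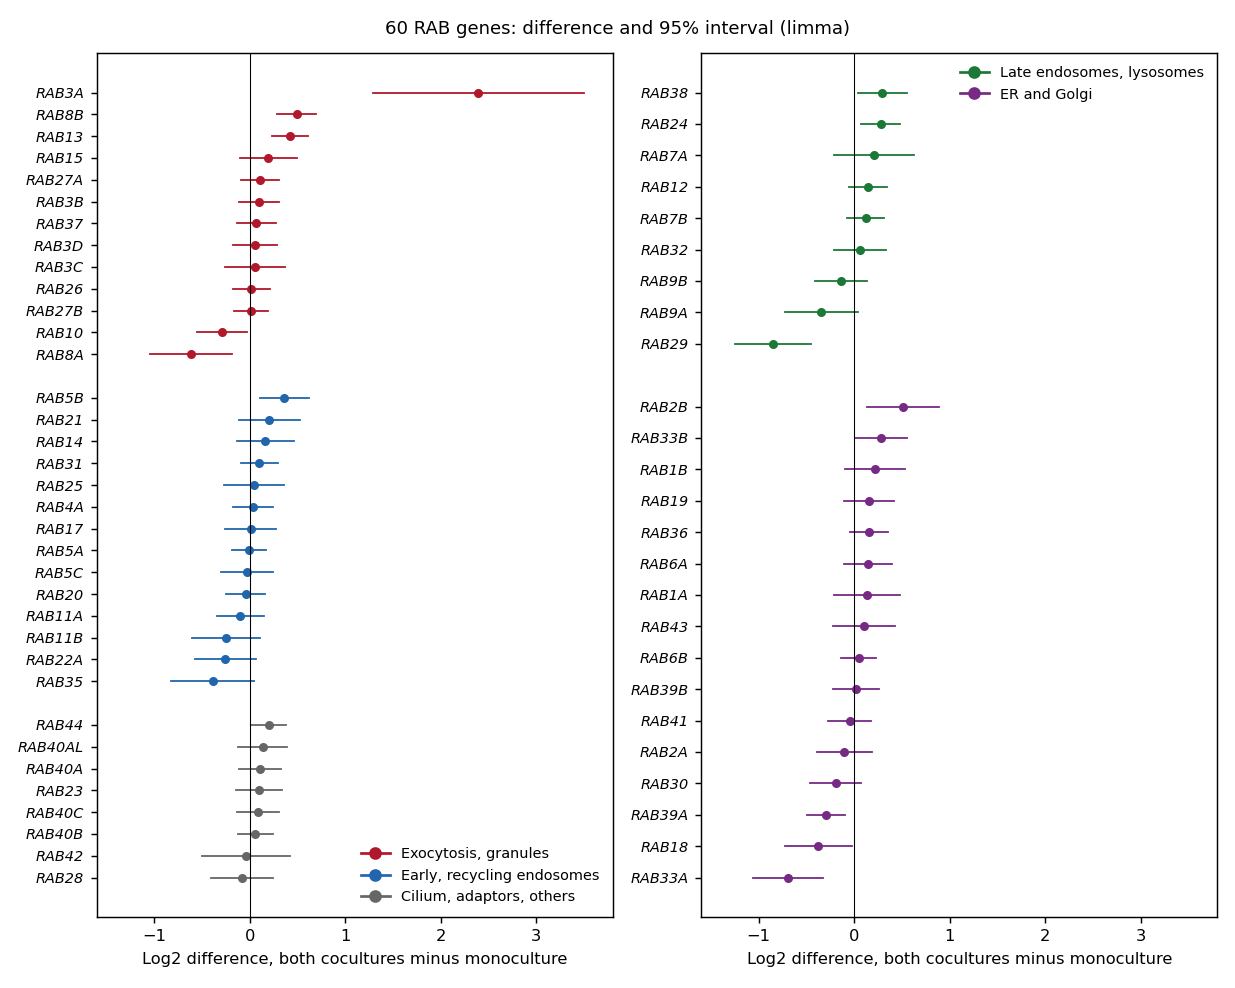
Log2 difference of both cocultures minus monoculture (x axis) for each of the 60 RAB genes (rows), grouped by role, with bars for the 95% interval of the limma fit over 6 arrays. RAB3A is at 2.39, RAB29 at -0.85, and 55 genes lie within 0.5 of 0.

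The RAB genes of exocytosis and secretory granules numbered 13, with 11 higher and 2 lower means and a median log2 difference of 0.072. RAB3A, which regulates release of synaptic and secretory vesicles, had log2 values of 6.46 and 6.77 in monoculture, 8.48 and 10.19 in T cell coculture and 8.47 and 8.90 in monocyte coculture. All 4 coculture arrays lay above both monoculture arrays, and the second T cell coculture array was the highest. The log2 difference was 2.39 ± 0.45 (SE), 5.25-fold, with a 95% interval of 1.29 to 3.49 and an adjusted p of 0.067 in limma. RAB3A was named by the study from these same arrays, so its size is no independent evidence. The adjusted p ranged from 0.0125 to 0.31 over the alternatives tried. It was 0.14 without monocyte coculture replicate 1, the array with LYZ, where the log2 difference was 2.50. RAB3A was called without T cell coculture replicate 1 (2.82, adjusted p = 0.0127 in limma) and without T cell coculture replicate 2 (1.97, adjusted p = 0.0417).

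RAB3A differed by 2.72 ± 0.52 (SE) log2 units for T cell coculture alone and by 2.07 ± 0.52 for monocyte coculture alone, with adjusted p of 0.13 and 0.12 in limma. Its closest relatives did not share that size. RAB3B, another secretory vesicle Rab, differed by 0.099 ± 0.087 (SE). RAB3C differed by 0.054 ± 0.13 and RAB3D, a granule Rab of exocrine and immune cells, by 0.060 ± 0.094. The signs of RAB3C and RAB3D were turned by some alternatives. RAB3B and RAB3C were among the dimmest 40% of probe sets.

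RAB27A, which docks cytotoxic and secretory granules, was 7.82 and 7.93 in monoculture, 8.10 and 8.03 in T cell coculture and 7.85 and 7.95 in monocyte coculture. The monocyte coculture arrays overlapped monoculture, and both T cell coculture arrays lay above it. The log2 difference was 0.11 ± 0.082 (SE), with a 95% interval of -0.095 to 0.31. RAB27B, a relative in secretory granules, differed by 0.013 ± 0.072 and was dim, and its sign turned after median centring.

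RAB8A and RAB8B are near relatives that carry vesicles from the Golgi and recycling endosomes to the surface. RAB8A had log2 values of 8.50 and 8.33 in monoculture, 8.15 and 7.56 in T cell coculture and 7.85 and 7.64 in monocyte coculture. All coculture arrays were lower, by -0.61 ± 0.18 (SE, adjusted p = 0.14 in limma). RAB8B had 8.70 and 8.73 in monoculture, 9.21 and 9.37 in T cell coculture and 9.15 and 9.10 in monocyte coculture. All coculture arrays were higher, by 0.49 ± 0.084 (SE, adjusted p = 0.059 in limma), 1.41-fold. Without monocyte coculture replicate 1 RAB8B differed by 0.48, with an adjusted p of 0.14.

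RAB13, which serves traffic to cell junctions, was 7.44 and 7.50 in monoculture, 7.72 and 7.83 in T cell coculture and 8.01 and 8.02 in monocyte coculture. The groups did not overlap. The log2 difference was 0.42 ± 0.078 (SE, adjusted p = 0.066 in limma), and 0.32 ± 0.11 on a second probe set of the gene. RAB10, which acts in vesicle delivery to the surface and is named here after its values were seen, had 8.74 and 8.81 in monoculture and 8.32 to 8.62 in the cocultures, a difference of -0.29 ± 0.11.

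**Figure D3:**
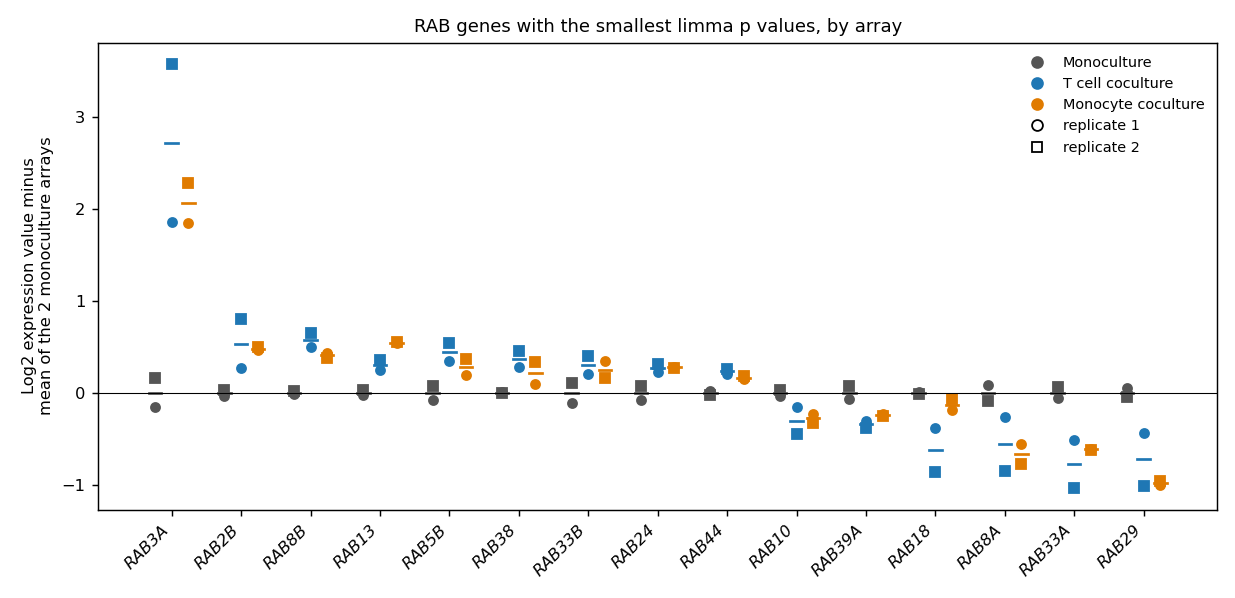
Log2 value on each array minus the mean of the 2 monoculture arrays (y axis) for the 15 RAB genes with an unadjusted limma p under 0.05 (x axis, ordered by difference). Circles are replicate 1, squares replicate 2 and bars group means. RAB3A stands at 1.85 or more on all 4 coculture arrays, and T cell coculture replicate 2 is the outermost array for every gene shown except RAB13.

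The 14 Rabs of early and recycling endosomes had 7 higher and 7 lower means, with a median of 0.0028. RAB5B, which acts in early endosome fusion, was 7.96 and 8.11 in monoculture, 8.38 and 8.58 in T cell coculture and 8.22 and 8.41 in monocyte coculture. All 4 coculture arrays were higher. The difference was 0.36 ± 0.11 (SE, adjusted p = 0.14 in limma). RAB35, of fast recycling, differed by -0.39 ± 0.18, and all 4 coculture arrays were lower. RAB22A, of endosomal sorting, differed by -0.25 ± 0.13 and RAB11B, of recycling endosomes, by -0.25 ± 0.15, with overlapping arrays for both. The other 10, among them RAB5A, RAB5C, RAB4A and RAB11A, lay between -0.095 and 0.21.

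The 9 Rabs of late endosomes, lysosomes, autophagy and lysosome-related organelles had 6 higher and 3 lower means and a median of 0.12. RAB29, which works at the trans-Golgi and lysosome and is known to recruit the kinase LRRK2, was 7.90 and 7.80 in monoculture, 7.41 and 6.84 in T cell coculture and 6.84 and 6.89 in monocyte coculture. All 4 coculture arrays were lower. The difference was -0.85 ± 0.16 (SE), 1.80-fold, with an adjusted p of 0.069 in limma, and the adjusted p ranged from 0.0127 to 0.31 over alternatives. RAB29 was called without T cell coculture replicate 1 (-0.996, adjusted p = 0.0127) and without T cell coculture replicate 2 (-0.71, adjusted p = 0.0478). Without monocyte coculture replicate 1 the difference was -0.84 and the adjusted p 0.15. LRRK2 itself, named after its values were seen, differed by 0.009 ± 0.13 (SE).

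RAB24, an atypical Rab linked to autophagy, was 6.95 and 7.09 in monoculture and 7.25 to 7.34 in the cocultures, 0.28 ± 0.084 (SE) higher. RAB38, of lysosome-related organelles, was 5.34 on both monoculture arrays and 5.44 to 5.80 in coculture, 0.30 ± 0.10 higher. Neither passed the test. RAB9A, of endosome-to-Golgi return, was 6.98 and 7.41 in monoculture and overlapped the cocultures, at -0.34 ± 0.16. The other 5 lay between -0.14 and 0.21. RAB7A, the late endosome and lysosome Rab, named here after its values were seen, differed by 0.21 ± 0.17 on one probe set and 0.10 ± 0.18 on the other.

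The 16 Rabs of the endoplasmic reticulum and Golgi had 10 higher and 6 lower means and a median of 0.073. RAB33A, a Golgi-associated Rab of brain and lymphoid cells, was 8.31 and 8.43 in monoculture, 7.85 and 7.33 in T cell coculture and 7.75 on both monocyte coculture arrays. All 4 coculture arrays lay below both monoculture arrays, and the cocultures overlapped each other. The difference was -0.70 ± 0.15 (SE, adjusted p = 0.082 in limma). Its relative RAB33B, a Golgi Rab linked to autophagy and named here after its values were seen, differed by 0.28 ± 0.11 in the other direction.

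RAB2B, of Golgi and secretory traffic, was 6.58 and 6.64 in monoculture, 6.88 and 7.42 in T cell coculture and 7.07 and 7.11 in monocyte coculture, a difference of 0.51 ± 0.15 (SE, adjusted p = 0.15 in limma). All 4 coculture arrays were higher. RAB18, of lipid droplets and the endoplasmic reticulum, was 7.69 and 7.67 in monoculture, 7.30 and 6.81 in T cell coculture and 7.49 and 7.61 in monocyte coculture, at -0.38 ± 0.14. RAB39A was counted in this role, though it is also linked to endosomes and autophagy. It was dim, at 5.43 and 5.57 in monoculture and 5.12 to 5.27 in coculture, a difference of -0.29 ± 0.083. The other 12, with RAB1A, RAB1B, RAB2A, RAB6A and RAB6B among them, lay between -0.19 and 0.28.

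Of 8 Rabs of the primary cilium, ubiquitin ligase adaptors and others, 6 had higher means, with a median of 0.096. RAB44, dim, was 5.15 and 5.10 in monoculture and 5.27 to 5.38 in the cocultures, 0.20 ± 0.075 (SE) higher, but -0.011 on its second probe set. RAB40AL differed by 0.14, RAB40A by 0.11 and RAB40C by 0.092, Rabs with a ubiquitin ligase box. RAB40A and RAB40AL are near-identical, so their split is uncertain. RAB23 differed by 0.099 ± 0.098 (SE), with overlapping arrays. The other 3 lay between -0.080 and 0.061.

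The comparisons of each coculture with monoculture share the monoculture arrays. For T cell coculture limma called 0 RAB genes, where 0% of all probe sets were called. At an unadjusted p under 0.05 there were 9 higher and 7 lower, 16 of 60. Of all genes 17.5% passed, 6.16% higher and 11.4% lower. For monocyte coculture limma called 0, against 0.579% of all probe sets. There were 5 higher and 4 lower at an unadjusted p under 0.05, against 19.9% of genes, 7.68% higher and 12.2% lower. RAB29 differed by -0.72 ± 0.19 (SE) with T cells and -0.98 ± 0.19 with monocytes, RAB8B by 0.57 ± 0.10 and 0.41 ± 0.10, RAB13 by 0.30 ± 0.09 and 0.54 ± 0.09, and RAB33A by -0.78 ± 0.17 and -0.62 ± 0.17.

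Monocyte coculture against T cell coculture gave 0 RAB genes called in limma, and 0% of all probe sets. At an unadjusted p under 0.05 there were 4 higher and 1 lower, against 7.37% of genes, 3.53% higher and 3.84% lower. RAB18 was higher in monocyte coculture by 0.49 ± 0.17 (SE, adjusted p = 0.59 in limma), RAB23, of ciliary traffic, by 0.33 ± 0.11, and RAB15, of endosome recycling and secretion, was lower, at -0.39 ± 0.14. In 2 RAB genes, RAB5A and RAB27B, the arrays of the cocultures lay on opposite sides of both monoculture arrays, a pattern of 2.25% of all genes. The 2 arrays of T cell coculture differed from each other more than those of the other groups. The median absolute gap between replicates over RAB genes was 0.166 in T cell coculture, 0.126 in monocyte coculture and 0.0901 in monoculture. Over all genes it was 0.132, 0.111 and 0.0981, in the same order of groups. RAB3A had the largest gap of the RAB genes in T cell coculture, 1.71. On T cell coculture replicate 2, 20.0% of RAB genes lay more than 0.5 from the monoculture mean, and 14.1% of all genes. On replicate 1 it was 3.33% and 4.47%. Without T cell coculture replicate 1, limma called 8 RAB genes for both cocultures against monoculture, and 7.21% of all probe sets. That fit holds 1 T cell coculture array, which is assumed to vary like the arrays of the other groups. RAB3A, RAB2B, RAB8B and RAB13 were higher and RAB29, RAB33A, RAB8A and RAB18 lower among them.

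The regulators and partners of Rab proteins were taken from lists made with earlier results of these data known. None of the lists had a gene called by limma for both cocultures against monoculture. Without T cell coculture replicate 1 the calls were 2 GEFs, 3 GAPs, 5 effectors, 1 gene of the membrane cycle and 2 SNAREs or partners, where 7.21% of all probe sets were called. Without the dimmest 40% of probe sets they were 1 GAP and 1 effector, where 3.9% were called. Among all genes, 21.4% had an unadjusted p under 0.05, 7.82% higher and 13.6% lower. Of 38 measured Rab GEFs, 24 had higher means, with a median of 0.064 and 5 higher and 3 lower at an unadjusted p under 0.05, 8 of 38 against 21.4% of all genes. DENND4B, an activator of RAB10, was 6.56 and 6.58 in monoculture and 6.89 to 7.11 in coculture, at 0.41 ± 0.076 (SE, adjusted p = 0.066). DENND1B and DENND1C, activators of RAB35, differed by 0.51 ± 0.11 and 0.42 ± 0.091. MADD, an activator of RAB3 proteins and named after its values were seen, differed by -0.11 ± 0.11, and RAB3IP, a GEF of RAB8, by -0.21 ± 0.12.

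Of 37 measured Rab GAPs, 22 had higher means, with a median of 0.046 and 4 higher and 4 lower at an unadjusted p under 0.05, 8 of 37 against 21.4% of all genes. TBC1D14, a GAP family protein of autophagy, was 7.04 and 7.14 in monoculture, 6.52 and 6.26 in T cell coculture and 6.68 and 6.59 in monocyte coculture, at -0.58 ± 0.10 (SE, adjusted p = 0.061). TBC1D2B, another protein of the GAP family, differed by 0.65 ± 0.13 and RAB3GAP1, a subunit of the complex that acts on RAB3 and RAB18, by 0.34 ± 0.082. Its partner subunit RAB3GAP2, named after its values were seen, differed by 0.33 ± 0.14.

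Of 60 measured effectors, 38 had higher means, with a median of 0.032 and 7 higher and 5 lower at an unadjusted p under 0.05, 12 of 60 against 21.4% of all genes. OPTN, the RAB8 effector optineurin, was 7.58 on both monoculture arrays, 7.97 and 8.34 in T cell coculture and 8.36 and 8.68 in monocyte coculture, at 0.76 ± 0.14 (SE, adjusted p = 0.066). PIK3C3, the lipid kinase of early endosomes and autophagy, differed by -0.67 ± 0.13 and MICAL1, an actin-oxidising effector, by 0.62 ± 0.14. Among RAB27 effectors, named after their values were seen, MLPH differed by 0.24 ± 0.084, UNC13D by 0.16 ± 0.073 and SYTL1 to SYTL5 by -0.10 to 0.02. MYRIP and EXPH5, also of this kind, differed by -0.082 ± 0.090 and 0.028 ± 0.073.

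Of 10 measured genes of the Rab membrane cycle, 5 had higher means, with a median of -0.064 and 1 higher and 2 lower at an unadjusted p under 0.05, 3 of 10 against 21.4% of all genes. ZMPSTE24, a protease that trims prenylated proteins, was 7.32 and 7.13 in monoculture and 6.26 to 6.74 in coculture, at -0.65 ± 0.13 (SE). RABGGTB, the beta subunit of the enzyme that prenylates Rabs, differed by 0.47 ± 0.17 and GDI2, which extracts Rabs from membranes, by -0.21 ± 0.077. Of 34 measured exocytic SNAREs and partners, 17 had higher means, with a median of -0.0004 and 2 higher and 6 lower at an unadjusted p under 0.05, 8 of 34 against 21.4% of all genes. SNAP23, a plasma membrane SNARE, was 9.10 and 9.01 in monoculture and 8.04 to 8.83 in coculture, at -0.69 ± 0.19, SNAP29, of autophagosome fusion, differed by -0.60 ± 0.17 and STX2, a plasma membrane syntaxin, by -0.26 ± 0.078.

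**Figure D4:**
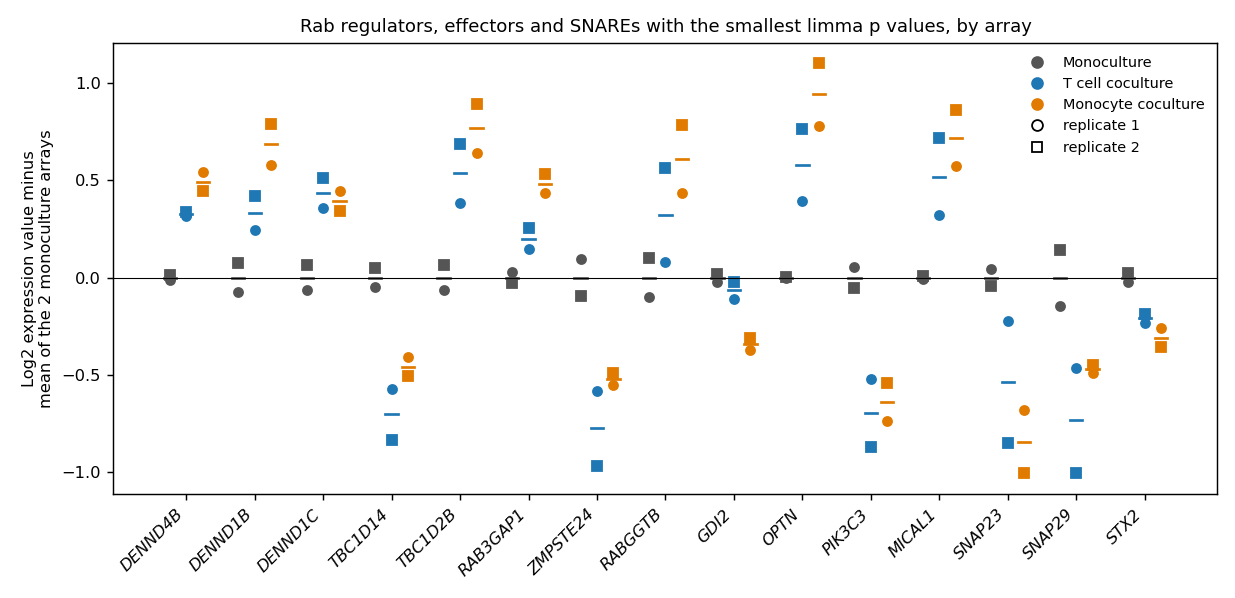
Log2 value on each array minus the mean of the 2 monoculture arrays (y axis) for 15 genes, 3 of each list of Rab partners with the smallest limma p (x axis). Circles are replicate 1, squares replicate 2 and bars group means. OPTN lies above both monoculture arrays on all 4 coculture arrays and SNAP23 below.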

How the data were processed

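Expression was measured on 6 arrays in 3 groups of 2. The authors deposited 1 normalized log2 value per probe set and array. The method of normalization is not given in the sources used here. The values were used as deposited. Of 32321 probe sets, 19158 carried 1 symbol in the platform annotation, 1388 several and 11775 none. Of those with 1 symbol, 19128 matched RefSeq (GRCh38.p14) by Entrez identifier, and 0 symbols needed updating. The 5 probe sets that name a RAB gene among several symbols (RAB4B, RAB34, RAB43, and RAB6A with RAB6C and RAB6D on 2 of them) were not used. Their differences lay between -0.023 and 0.12.

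Group means were fitted per probe set with limma (version 3.58.1, R 4.3.3), lmFit and eBayes, over all 6 arrays, with 3 residual and 3.08 prior degrees of freedom. P-values were adjusted by Benjamini-Hochberg over the whole table, and a probe set was called at an adjusted p under 0.05. Errors are standard errors of the fit. The number of arrays limits the precision. The limma step was tested on simulated data.

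Members, roles and partner lists were chosen with earlier results of these data known. Genes named were any called member, all RAB3 and RAB27 genes, the 4 members of smallest p in each role, the 3 of smallest p for monocyte against T cell coculture, and the 3 of smallest p in each partner list. Genes outside it are named as chosen after their values were seen. Alternatives tried were quantile normalization, median centring, leaving out the dimmest 40% of probe sets, a replicate block, the mean over probe sets of a gene, an intensity trend, robust eBayes, and leaving out each array. Promoter windows and motifs were read from RefSeq sequences, and the motifs were chosen with the data seen. Protein sequences were not analysed here.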

Additional observations from a re-analysis of the deposited data

Results flagged for a closer look

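In 2 RAB genes both T cell coculture arrays lay below both monoculture arrays and both monocyte coculture arrays above. Coculture arrays lay on opposite sides of both monoculture arrays in 2.25% of all genes. RAB27B, among the dimmest 40% of probe sets, was 5.25 and 5.24 in monoculture, 5.21 and 5.18 in T cell coculture and 5.32 and 5.34 in monocyte coculture. Monocyte minus T cell coculture was 0.1328 ± 0.084 (SE, adjusted p = 0.81 in limma). RAB5A, of early endosomes, was 8.63 on both monoculture arrays, 8.58 and 8.55 in T cell coculture and 8.66 and 8.71 in monocyte coculture. Monocyte minus T cell coculture was 0.1197 ± 0.085 (SE, adjusted p = 0.84 in limma). Neither difference passed the test.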

How the results depend on the processing

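No RAB gene was called as reported. For both cocultures against monoculture, 3 RAB genes were called without the dimmest 40% of probe sets (RAB3A and RAB8B higher, RAB29 lower). In that setting 3.9% of the probe sets kept were called. With the replicate block 1 RAB gene was called (RAB3A, adjusted p = 0.0497 in limma), where 0.903% of all probe sets were called. Leaving out each array gave 0 to 8. Without T cell coculture replicate 1 the count was 8, where 7.21% of all probe sets were called. Without T cell coculture replicate 2 it was 2, where 0.869% of all probe sets were called. Without any of the other 4 it was 0, where 0% were called. Without both first coculture arrays, a setting chosen after seeing the data, more RAB genes were called than as reported, as were more of all probe sets. For T cell coculture the counts were 0 to 7 on leaving out an array and 6 without both first arrays, where 4.3% (without T cell coculture replicate 1) and 4.75% of all probe sets were called. For monocyte coculture they were 0 to 4 and 2, where 3.61% (without either T cell coculture array) and 2.25% of all probe sets were called. The cause was not tested. Fewer arrays enter those fits, and a group left with 1 array is assumed to vary like the others. Over all probe sets, 232 were called for both cocultures, 564 after median centring, 756 of 19392 without the dimmest 40%, 55 with an intensity trend, 2329 without T cell coculture replicate 1, 2545 without both first arrays and 0 without any one monoculture or monocyte coculture array.

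The log2 differences of named RAB genes changed sign as follows, and none of these values passed the test. For both cocultures minus monoculture, RAB27B was -0.049, RAB3C was -0.0091 and RAB3D was -0.0024 after median centring. RAB27B was -0.037 and RAB3D was -0.0038 after quantile normalization. RAB3C was -0.073 and RAB3D was -0.0035 without both first coculture arrays. On leaving out each array in turn, RAB3C ranged from -0.051 to 0.16, RAB3D ranged from -0.018 to 0.14 and RAB40C ranged from -0.017 to 0.20. For T cell coculture minus monoculture, RAB3D was -0.012 after median centring. RAB3D was -0.015 after quantile normalization. RAB3D was -0.0025 without both first coculture arrays. On leaving out each array in turn, RAB23 ranged from -0.14 to 0.015 and RAB3D ranged from -0.032 to 0.12. For monocyte coculture minus monoculture, RAB15 was -0.063, RAB27A was -0.042 and RAB40C was -0.060 after median centring. RAB15 was -0.046, RAB22A was 0.032 and RAB40C was -0.046 after quantile normalization. RAB22A was 0.0049, RAB3C was -0.024, RAB3D was -0.0045 and RAB40A was -0.022 without both first coculture arrays. On leaving out each array in turn, RAB15 ranged from -0.056 to 0.063, RAB22A ranged from -0.20 to 0.059, RAB27A ranged from -0.027 to 0.077, RAB3C ranged from -0.024 to 0.39, RAB3D ranged from -0.0045 to 0.15, RAB40A ranged from -0.022 to 0.17 and RAB40C ranged from -0.10 to 0.12. For monocyte minus T cell coculture, RAB24 was -0.00091 after median centring. RAB35 was 0.0091 after quantile normalization. RAB24 was -0.043, RAB29 was 0.059, RAB35 was 0.13, RAB3B was 0.078, RAB3D was -0.0020 and RAB8A was 0.074 without both first coculture arrays. On leaving out each array in turn, RAB24 ranged from -0.038 to 0.052, RAB29 ranged from -0.54 to 0.034, RAB2B ranged from -0.33 to 0.21, RAB33A ranged from -0.099 to 0.42, RAB35 ranged from -0.32 to 0.27, RAB3A ranged from -1.50 to 0.21, RAB3B ranged from -0.11 to 0.052, RAB3D ranged from -0.051 to 0.11, RAB40A ranged from -0.17 to 0.021, RAB40AL ranged from -0.24 to 0.064 and RAB8A ranged from -0.40 to 0.18. The replicate numbers are shared across groups, but deviations of same-numbered arrays correlated at 0.0268, -0.152 and 0.26, so the numbers were not taken as a pairing. The replicate block changed no other RAB call.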
